A study of Mus musculus with 12 samples.

Results

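Components of the Wnt and Notch pathways were followed in left ventricular myocardium of mice given AngII/PE for 3 days. The members were all symbols of the authors' deposited table that belong to the Wnt, Frizzled, Ror, LRP, secreted antagonist (Sfrp, Frzb, Dkk, Wif1), R-spondin and Lgr, Dact, Naked cuticle, Porcn, Dvl, Axin, Lef1, Vangl, Daam, Notch, Delta-like, Jagged and Nrarp families. There were 19 of them among 3939 listed genes, 17 of the Wnt families and 2 of the Notch families. They were matched by symbol, but a gene had to be listed to be chosen, and the rule for listing is not given. The families themselves were chosen with earlier results of these data known. The largest adjusted p of the authors' deposited table is 0.0497, so all listed genes lie below 0.05, and whether a minimum fold change was also required is unknown. Small changes were rare among the listed genes: 95% of rises lay above 0.63 and 95% of falls below -0.41 on the log2 scale.

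The libraries came from whole left ventricle of wild-type C57Bl6J/129X1 hybrid mice, a cross of inbred strains without an engineered allele. Controls received NaCl and the others AngII/PE, which in cardiac research usually stands for the vasoconstrictor peptide angiotensin II with the alpha-1 adrenergic agonist phenylephrine. Each treatment was represented by 3 female and 3 male libraries, 12 in all, and ages are not given in the labels. Only the comparison of treated with control libraries was analysed, as 1 log2 fold change per gene with its adjusted p-value. No level per library, standard error or depth accompanies these values, so neither the spread between mice nor the response of each sex is known, and a difference in fold change between members could not be tested. Positive values mean higher in treated myocardium.

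Wnt proteins are secreted lipid-modified ligands that bind Frizzled receptors through a cysteine-rich domain. With the coreceptors Lrp5 and Lrp6 they stabilise beta-catenin, which acts with TCF/LEF factors in the nucleus, and with Ror receptors they work through beta-catenin-independent branches. Secreted Frizzled-related proteins, Wif1 and Dkk proteins limit the signal outside the cell, and Dact and Naked cuticle proteins bind Dishevelled inside it. Notch receptors are activated by Delta-like and Jagged ligands on neighbouring cells and release a fragment that acts with RBPJ. In the adult heart Wnt signalling is known mainly from work on injury and fibroblasts, and Dll4 from work on endothelium.

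Promoter sequences are shown for 5 members around which the results are arranged: the secreted antagonists Sfrp2 and Frzb, which were higher, and Wif1, which was lower, then the intracellular inhibitor Nkd2 and the receptor Fzd1. Each window runs from 250 bases before to 50 bases after an annotated start, written in the direction of transcription, from RefSeq on GRCm38.p6. The windows are Sfrp2 chr3:83766071-83766370 on the plus strand, Frzb chr2:80447347-80447646 on the minus strand, Wif1 chr10:121033754-121034053 on the plus strand, Nkd2 chr13:73847582-73847881 on the minus strand and Fzd1 chr5:4758167-4758466 on the minus strand. Capitals mark the TCF/LEF core CTTTGA and the RBPJ core TGGGAA, each searched on both strands, so that they also appear as TCAAAG and TTCCCA.
Sfrp2: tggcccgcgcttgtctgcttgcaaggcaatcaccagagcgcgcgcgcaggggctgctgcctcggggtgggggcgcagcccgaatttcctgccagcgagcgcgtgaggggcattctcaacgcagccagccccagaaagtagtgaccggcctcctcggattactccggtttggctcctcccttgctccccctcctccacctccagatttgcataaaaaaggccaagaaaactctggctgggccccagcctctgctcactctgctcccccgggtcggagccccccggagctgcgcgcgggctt
Frzb: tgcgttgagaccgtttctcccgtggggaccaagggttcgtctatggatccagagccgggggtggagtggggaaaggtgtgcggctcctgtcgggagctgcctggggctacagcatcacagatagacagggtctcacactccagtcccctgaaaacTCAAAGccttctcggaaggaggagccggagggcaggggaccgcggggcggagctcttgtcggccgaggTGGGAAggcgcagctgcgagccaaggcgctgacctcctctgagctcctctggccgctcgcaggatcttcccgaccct
Wif1: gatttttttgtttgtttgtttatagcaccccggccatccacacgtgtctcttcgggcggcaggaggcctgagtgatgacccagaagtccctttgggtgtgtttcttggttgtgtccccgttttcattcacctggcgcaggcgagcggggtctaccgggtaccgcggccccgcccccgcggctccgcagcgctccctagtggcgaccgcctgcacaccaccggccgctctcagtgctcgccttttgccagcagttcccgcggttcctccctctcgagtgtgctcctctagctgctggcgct
Nkd2: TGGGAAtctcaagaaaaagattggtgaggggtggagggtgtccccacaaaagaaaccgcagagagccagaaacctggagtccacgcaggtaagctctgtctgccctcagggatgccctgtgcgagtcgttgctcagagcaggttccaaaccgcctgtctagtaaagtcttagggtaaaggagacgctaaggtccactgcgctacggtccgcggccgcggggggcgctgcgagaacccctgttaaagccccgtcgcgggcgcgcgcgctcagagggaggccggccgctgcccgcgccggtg
Fzd1: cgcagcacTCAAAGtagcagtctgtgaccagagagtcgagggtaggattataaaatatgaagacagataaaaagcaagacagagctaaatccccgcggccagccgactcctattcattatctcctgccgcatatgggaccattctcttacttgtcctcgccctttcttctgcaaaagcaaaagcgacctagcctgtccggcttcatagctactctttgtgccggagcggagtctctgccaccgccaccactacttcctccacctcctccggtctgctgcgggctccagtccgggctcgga

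Frzb held both cores, Fzd1 the TCF/LEF core, Nkd2 the RBPJ core at the start of its window, and Sfrp2 and Wif1 neither. RefSeq windows were found for 16 of the 19 members, 19 windows in all, and not for Sfrp1, Fzd2 and Wnt5a. The TCF/LEF core was in 3 of these 19 windows (15.8%), those of Frzb, Fzd1 and Lrp10, against 16.0% of all 32851 windows of the same length. The RBPJ core was in 4 (21.1%), against 25.6% of all windows. Both shares lie near those of promoters at large. The member windows were rich in CpG, with a median of 23 CpG dinucleotides and 63.0% G and C, where the median over all windows was 7 and 52.7%. The set of all windows was not limited to listed genes, and windows of other listed genes were not compared.

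Among the members, Wnt-side genes were mostly higher and the listed Notch ligands were lower. Of the 19 members, 15 (78.9%) were higher and 4 (21.1%) lower in the authors' deposited table, where 56.2% and 43.8% of all 3939 listed genes were higher and lower. Rises of at least 1 on the log2 scale were seen for 11 members (57.9%) and for 30.7% of all listed genes, and falls to -1 or lower for 1 member (5.26%) and 6.96% of all. The median log2 fold change of the members was 1.31, beside 0.67 for all listed genes. Within the higher genes the medians were 1.37 for members and 1.06 for all, and within the lower genes -0.65 and -0.63. All 19 members had an adjusted p under 0.001, as did 88.0% of the listed genes. The list was chosen with earlier results of these data known, so these shares are a description and were not tested.

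**Figure D1:**
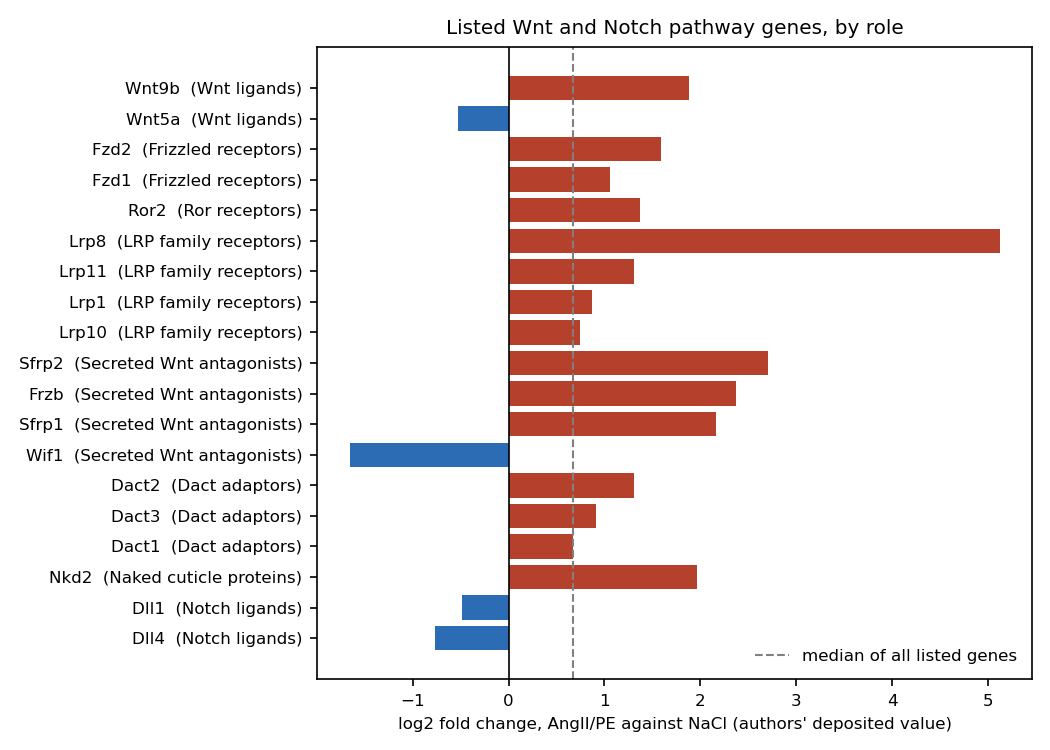
Horizontal bars give the log2 fold change (AngII/PE against NaCl, authors' deposited value, x axis) of each of the 19 members, ordered by role on the y axis, in red where higher and blue where lower; the dashed line is the median of all listed genes (0.67). Lrp8 extends farthest to the right at 5.12, and Wif1 farthest to the left at -1.66.

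Most of the annotated family genes had no value. GENCODE M21 annotates 86 protein-coding genes under these family names, of which 19 (22.1%) were listed. Of all 21924 protein-coding symbols, 15.2% had a value, a share that counts genes not expressed in heart. Coverage was uneven: the Dact family was listed in full with 3 of 3 genes, the secreted antagonists with 4 of 10, the LRP family with 4 of 12, the Frizzled receptors with 2 of 10 and the Wnt ligands with 2 of 19. No value was analysed for any of the 3 Dvl genes, the 2 Axin genes, Lef1, Porcn, the 4 R-spondins, the 3 Lgr receptors, the 2 Vangl and 2 Daam genes, the 4 Dkk genes, the 4 Notch receptors, the 2 Jagged ligands or Nrarp. The response of a gene without a value is unknown, and Lrp2bp, a binding protein, counts among the 12 LRP genes by its symbol only.

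**Figure D2:**
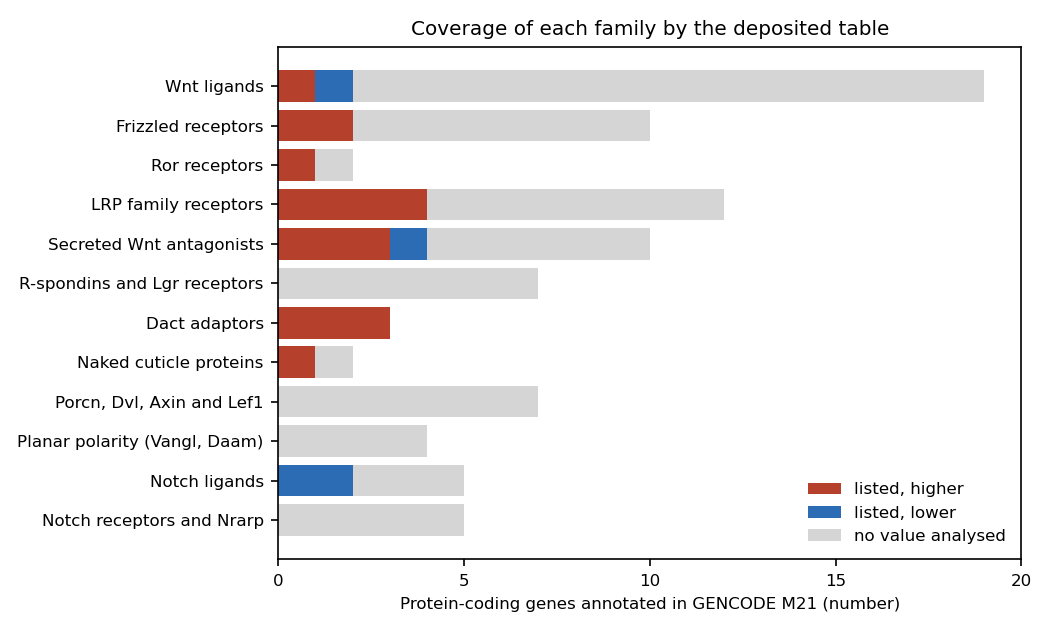
Stacked horizontal bars give the number of annotated protein-coding genes (x axis) in each family (y axis), split into those listed as higher (red), listed as lower (blue) and without a value analysed (grey). Red fills the whole bar for the 3 Dact genes, and the bars of 4 families are entirely grey.

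The listed ligands went in opposite directions. Wnt9b, a ligand known from kidney development and, in mouse and fish, from heart valve development, had a log2 fold change of 1.88 (3.68-fold higher, adjusted p = 3.49e-06) per the authors' deposited table. Wnt5a, the prototype of ligands that act without beta-catenin and a ligand of Ror2, was at -0.52 (1.44-fold lower, adjusted p = 3.03e-08) per the authors' deposited table. The value of Wnt9b is the larger of this pair, while its adjusted p is the less extreme. Ranked by adjusted p among all 3939 listed genes, Wnt9b was number 2933 and Wnt5a number 2605.

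All 3 listed receptors that bind Wnt directly were higher, beside 56.2% of all listed genes. Fzd2 and Fzd1, related seven-pass receptors of the Frizzled family, had log2 fold changes of 1.59 (3.01-fold, adjusted p = 1.06e-58) and 1.06 (2.08-fold, adjusted p = 9.10e-38) per the authors' deposited table. Ror2, a receptor with a kinase-like domain that binds Wnt5a, was at 1.37 (2.59-fold, adjusted p = 1.39e-16) per the authors' deposited table. Receptor and ligand thus differed in sign for Ror2 and Wnt5a. The text description that accompanies Ror2 in the file is that of Rora, a nuclear receptor for which ROR2 is a RefSeq synonym. The symbol and not the description was followed here, and Rora itself had no value analysed here.

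LRP family genes were higher in 4 of 4 listed cases, beside 56.2% of all listed genes, and none of the 4 is a classical Wnt coreceptor. Lrp8, the apolipoprotein E receptor 2 that binds reelin, had the largest change of the members, with a log2 value of 5.12 (34.8-fold, adjusted p = 2.13e-94) per the authors' deposited table. It was number 15 of the 2213 higher genes by size. Lrp8 spans chromosome 4, 107802261 to 107876840 of GRCm38, where the antisense genes Lrp8os1 and Lrp8os2 overlap it, and 0.398% of its 50-base runs occur in transcripts of other genes. Lrp11, a less studied relative, was at 1.31 (adjusted p = 8.93e-10) per the authors' deposited table. Lrp1, a large endocytic receptor that clears proteases and matrix proteins, was at 0.87 (adjusted p = 6.57e-29), and Lrp10, a receptor of the same family, at 0.74 (adjusted p = 4.89e-32), both per the authors' deposited table. Lrp8 apart, these changes lay between 1.67-fold and 2.48-fold, and Lrp1 and Lrp10 were below the median of all listed higher genes, 1.06. Lrp5, Lrp6 and Lrp4 had no value analysed here. Leaving out the 4 listed LRP genes, 11 members were higher and 4 lower, and the median log2 fold change was still 1.31.

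Secreted antagonists held the next largest rises and the largest fall. Sfrp2, a Frizzled-related protein that is also known to influence procollagen processing, was 6.55-fold higher (log2 fold change 2.71, adjusted p = 3.14e-63) per the authors' deposited table. Frzb, also called sFRP3, was at 2.37 (5.18-fold, adjusted p = 4.75e-84) and Sfrp1 at 2.16 (4.46-fold, adjusted p = 6.39e-115) per the authors' deposited table. These 3 were numbers 160, 228 and 284 of the 2213 higher genes by size, and Sfrp1 had the smallest adjusted p of the 19 members. Sfrp4 and Sfrp5 had no value analysed here.

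Wif1, which binds Wnt proteins through its own WIF domain and not through a Frizzled-like domain, moved the other way. Its log2 fold change was -1.66 (3.16-fold lower, adjusted p = 7.83e-16) per the authors' deposited table, number 53 of the 1726 lower genes by size. It was also the only member at or below -1. Wif1 spans chromosome 10, 121033960 to 121100650 of GRCm38, and none of its 50-base runs occur in another gene's transcripts. Neither its promoter window nor that of Sfrp2, both shown above, held a TCF/LEF or RBPJ core.

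The Naked cuticle and Dact genes, whose products bind Dishevelled, were higher in all 4 listed cases, beside 56.2% of all listed genes. Tmem88, a Dishevelled-binding gene outside the families, was lower at -0.43 per the authors' deposited table. Nkd2, a Naked cuticle protein that binds Dishevelled, was 3.90-fold higher (log2 fold change 1.96, adjusted p = 1.35e-35) per the authors' deposited table. The Dishevelled-binding adaptors Dact2, Dact3 and Dact1 were at 1.31 (adjusted p = 4.42e-06), 0.91 (adjusted p = 1.82e-15) and 0.67 (adjusted p = 9.32e-05) per the authors' deposited table. Dact1 thus had the largest adjusted p of the members and was number 1981 of the 2213 higher genes by size. Its annotated transcripts also share the most sequence with another gene: 33.7% of their 50-base runs occur, on the opposite strand, in 4930474H06Rik. The strand setting of the counting is not given here, so reads of such pairs cannot be told apart.

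**Figure D3:**
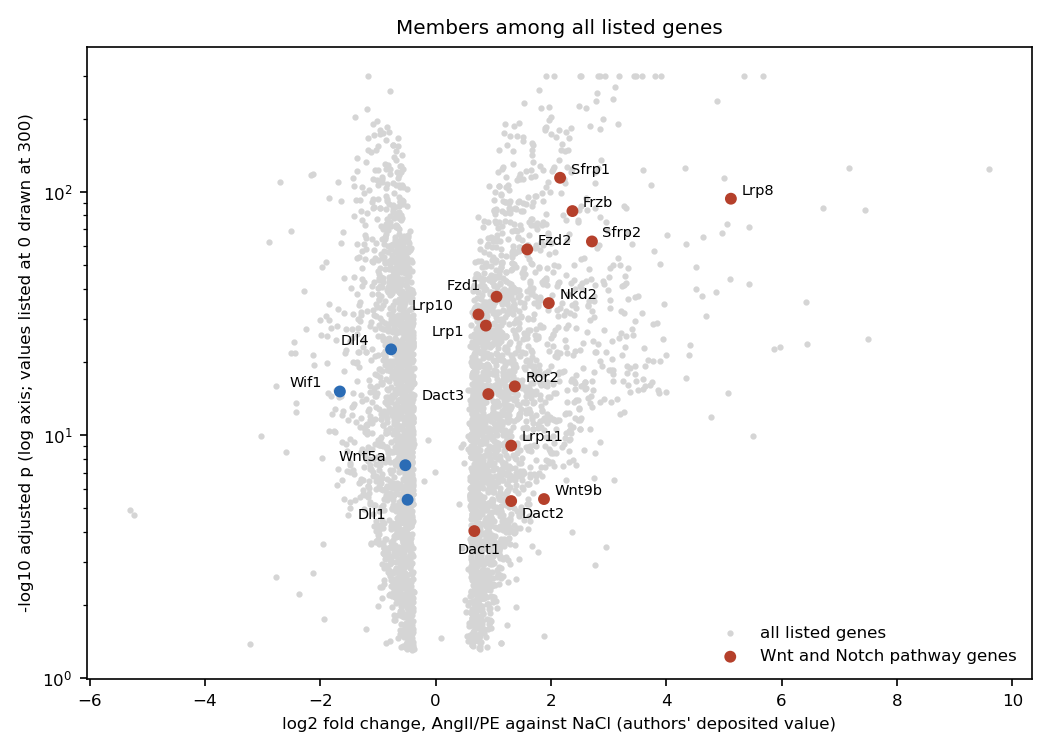
Each point is a listed gene, with its log2 fold change on the x axis and -log10 of its adjusted p on a logarithmic y axis (values listed at 0 drawn at 300); grey points are all 3939 genes and labelled points the 19 members, red where higher and blue where lower. Sfrp1, Frzb and Sfrp2 lie together at log2 fold changes of 2.16 to 2.71, Lrp8 stands alone at 5.12, and Dact1 is lowest of the members.

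On the Notch side the 2 listed genes were Delta-like ligands, and both were lower, beside 43.8% of all listed genes. Dll4, a ligand of endothelial cells that restrains vessel sprouting, was at -0.77 (1.71-fold lower, adjusted p = 3.13e-23) per the authors' deposited table. Dll1, a ligand with known roles in arterial endothelium, was at -0.49 (1.40-fold lower, adjusted p = 3.79e-06) per the authors' deposited table. By size, Dll4 was number 544 and Dll1 number 1339 of the 1726 lower genes. Of its 50-base runs 16.1% are shared with the overlapping A930024N18Rik on the other strand, and 4.33% of those of Dll4 with Gm14207. Neither overlapping gene had a value analysed here. Dll4 spans chromosome 2, 119325784 to 119335962, and Dll1 chromosome 17, 15367354 to 15376872 of GRCm38. The gap between Dll1 and Dact2, which went in opposite directions, is 1.16 Mb on chromosome 17, and that between Fzd2 and Wnt9b, both higher, 1.12 Mb on chromosome 11.

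Endothelial markers moved in the direction of the Delta-like ligands. Of 10 markers, 7 were listed and all 7 were lower, with log2 fold changes from -0.92 to -0.45 in the authors' deposited table. The largest of these were the tight junction gene Cldn5 at -0.92, the VEGF receptor gene Kdr at -0.82 and the receptor gene Tie1 at -0.58 in the authors' deposited table. Dll4 and Dll1 lie within that range, but so does -0.63, the median of all listed lower genes. Of all listed genes 43.8% were lower, and 15.2% of protein-coding symbols had a value. Endocardial markers were kept as a separate list, in which 2 were lower and Plvap was higher at 1.23 in the authors' deposited table. In whole tissue, fewer cells of a type and less RNA per cell cannot be told apart, and the part of the endothelial markers in the result for the Notch ligands was not tested.

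Listed fibroblast, macrophage and dividing-cell markers moved in the direction of most Wnt-side genes, where 56.2% of all listed genes were higher. Of 8 fibroblast markers 3 were listed, all higher: the matrix genes Postn at 5.68, Col1a1 at 3.81 and Lum at 1.14 in the authors' deposited table. Pdgfra, Dcn, Tcf21, Dpt and Ddr2 had no value, so the fibroblast result rests on matrix genes. All 8 macrophage markers were higher, from 0.79 upward, led by Fcgr1 at 1.996, Adgre1 at 1.74 and Cd68 at 1.64 in the authors' deposited table. All 6 dividing-cell markers were higher, from 3.01 to 5.08, led by Bub1 at 5.08, Ccnb1 at 3.71 and Top2a at 3.30 in the authors' deposited table. Cardiomyocyte markers were listed for 5 of 10 genes, all lower, from -1.17 to -0.65, where 43.8% of all listed genes were lower. The largest of these falls were Myl2 at -1.17, Tnni3 at -1.07 and Pln at -0.91 in the authors' deposited table. Levels were not analysed here, so the labelled tissue could not be checked against marker levels, and the part of these cell types in the results for Wnt genes was not tested.

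Endocardial and mural markers were mixed, as were all listed genes, of which 56.2% were higher and 43.8% lower. Of 4 endocardial markers 2 were lower, Cytl1 at -1.86 and Npr3 at -0.83, and Plvap was higher at 1.23 in the authors' deposited table. Of 7 mural markers 3 were lower and 2 higher, with Cspg4 at 1.33, Abcc9 at -1.17 and Acta2 at 1.14 in the authors' deposited table. The Schwann cell regulator Sox10, at -1.04 in the authors' deposited table, was the 1 listed marker of 4 for that cell type. None of the 5 epicardial markers had a value, beside 15.2% of all protein-coding symbols.

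**Figure D4:**
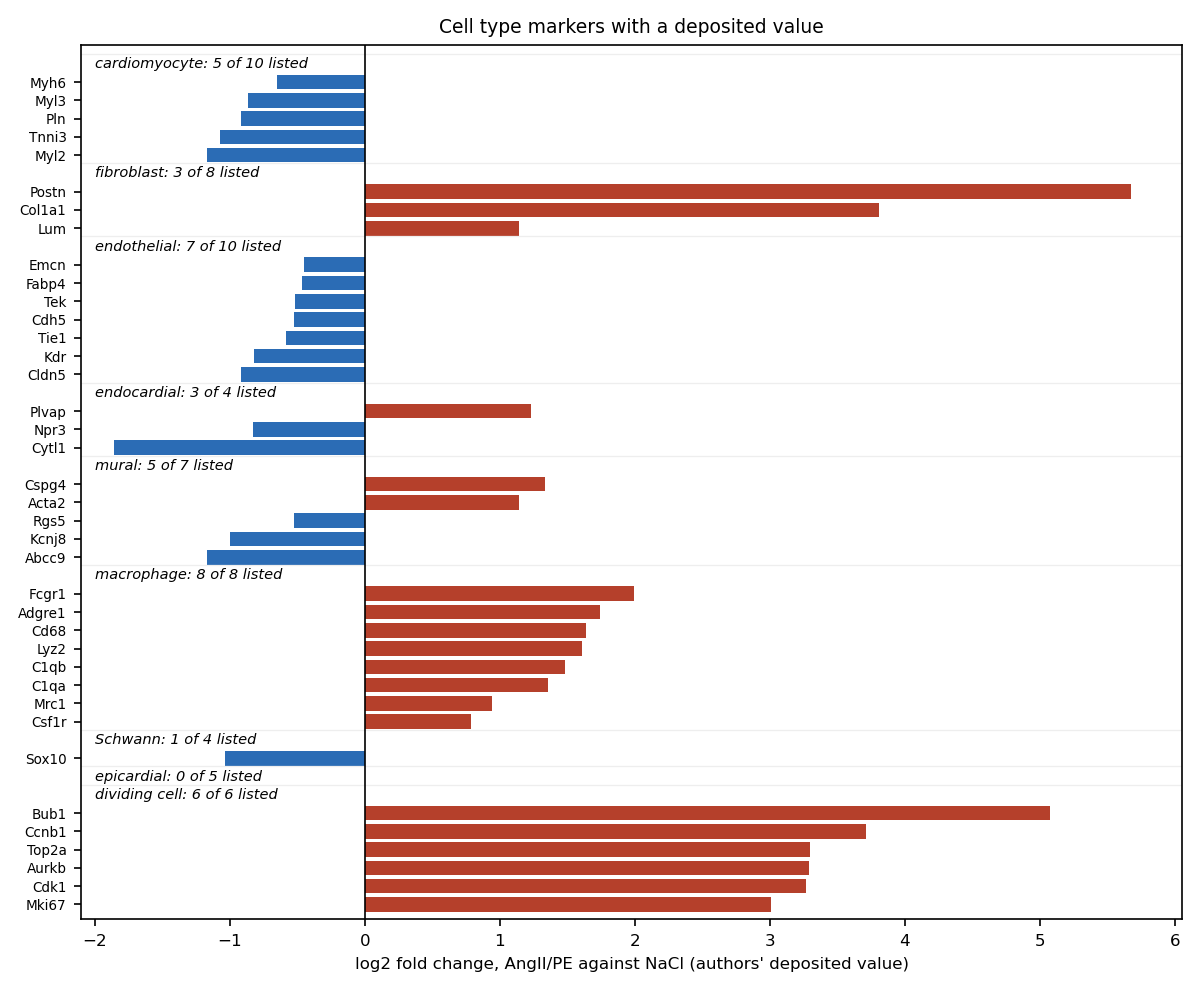
Horizontal bars give the log2 fold change (x axis, AngII/PE against NaCl, authors' deposited value) of each listed marker gene (y axis), grouped by cell type with the number listed of the number in the list. All 7 endothelial bars point left and all 8 macrophage bars point right.

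Further pathway genes outside the families were read from 7 lists holding 167 genes. Of these, 31 (18.6%) were listed in the authors' deposited table, 20 higher and 11 lower, with a median log2 fold change of 0.98. That is 64.5% higher, beside 56.2% of all listed genes, and the share listed stands beside 15.2% of all protein-coding symbols, so both shares lie near those of genes at large. On the Wnt side 24 of 109 were listed, 16 higher and 8 lower. On the Notch side 7 of 58 were listed, 4 higher and 3 lower.

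Genes of Wnt secretion, receptor turnover and coreceptors were listed in 8 of 20 cases (40.0%, beside 15.2% of protein-coding symbols), 6 higher and 2 lower. The share higher was 75.0%, beside 56.2% of all listed genes. Ptk7, a catalytically inactive receptor kinase of planar polarity, led with a log2 fold change of 1.77 in the authors' deposited table. The glypican genes Gpc6 and Gpc4, whose products carry heparan sulfate at the cell surface, were at 1.06 and 0.63 in the authors' deposited table. Apcdd1, a membrane inhibitor of Wnt, was at 1.01, the pseudoreceptor gene Bambi at 0.94, and Wls, which escorts Wnt proteins to the cell surface, at 0.88 per the authors' deposited table. The 2 lower genes were Tnfrsf19, a TNF receptor family member, at -1.73, and Tmem88, a membrane protein that binds Dishevelled, at -0.43 per the authors' deposited table.

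Downstream, none of the 32 genes of the beta-catenin destruction complex and its nuclear partners had a value, beside 15.2% of all protein-coding symbols. Ctnnb1, Gsk3b, Apc, Tcf7 and Tcf7l2 are among the 32, and their response is unknown. Of 25 genes known as targets of beta-catenin, 10 were listed, 9 higher and 1 lower, with a median log2 fold change of 1.62 in the authors' deposited table. The other 15 had no value, with Ccnd1, Ccnd2, Jun and Id2 among them. These shares, 40.0% listed and 90.0% of those higher, stand beside 15.2% of protein-coding symbols and 56.2% of listed genes, and were not tested. This list, like the others, was chosen with earlier results of these data known and does not hold every known target. The matricellular gene Ccn4, also called WISP1, was at 3.59, the cell division and survival gene Birc5 at 3.46 and the membrane protease gene Mmp14 at 2.05 in the authors' deposited table. The transcription factor genes were Sox9 at 1.81, Myc at 1.55, Twist1 at 1.54 and Snai2 at 0.69, beside the hyaluronan receptor gene Cd44 at 1.70 and the matricellular gene Ccn5 at 1.10 in the authors' deposited table. Fgf9, a growth factor gene, was at -0.61 in the authors' deposited table. These genes are also known to respond to other pathways. The widely used feedback targets Axin2, Lef1 and Nkd1 had no value analysed here. They belong to the families above and are not among the 25, so the 40.0% leaves them out.

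Planar polarity and calcium branch genes were listed in 6 of 32 cases (18.8%), near the 15.2% of all protein-coding symbols. Of the 6, 5 were lower, where 43.8% of all listed genes were lower. Celsr3 and Celsr2, seven-pass cadherins of planar polarity, were at -1.48 and -0.77, and the polarity effector gene Intu at -0.50 in the authors' deposited table. The calcium/calmodulin kinase genes Camk2b and Camk2a were at -0.75 and -0.60 in the authors' deposited table. The exception was Nfatc4, a calcineurin-dependent transcription factor gene, at 1.04 in the authors' deposited table.

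Of 58 Notch pathway genes outside the families 7 were listed (12.1%), near the 15.2% of all protein-coding symbols. Of the 7, 57.1% were higher, near the 56.2% of all listed genes. Of 28 genes of Notch processing and modification 4 were listed: Numbl, a Numb-like adaptor gene, at 1.36, the glycosyltransferase gene Lfng at 0.98, the ubiquitin ligase subunit gene Fbxw7 at -0.52 and the Deltex gene Dtx1 at -0.54 in the authors' deposited table. Dtx1 had an adjusted p of 0.0451, the highest of the 31 genes, in the authors' deposited table. Of 9 non-canonical ligands 2 were listed, the microfibril genes Mfap5 at 2.90 and Mfap2 at 2.16 in the authors' deposited table, and both are known foremost as matrix proteins. Of 21 nuclear partners and targets the cardiac transcription factor gene Tbx5 alone was listed, at -0.62 in the authors' deposited table. No value was analysed here for Rbpj, Hes1, Hey1, Hey2 or Heyl.

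**Figure D5:**
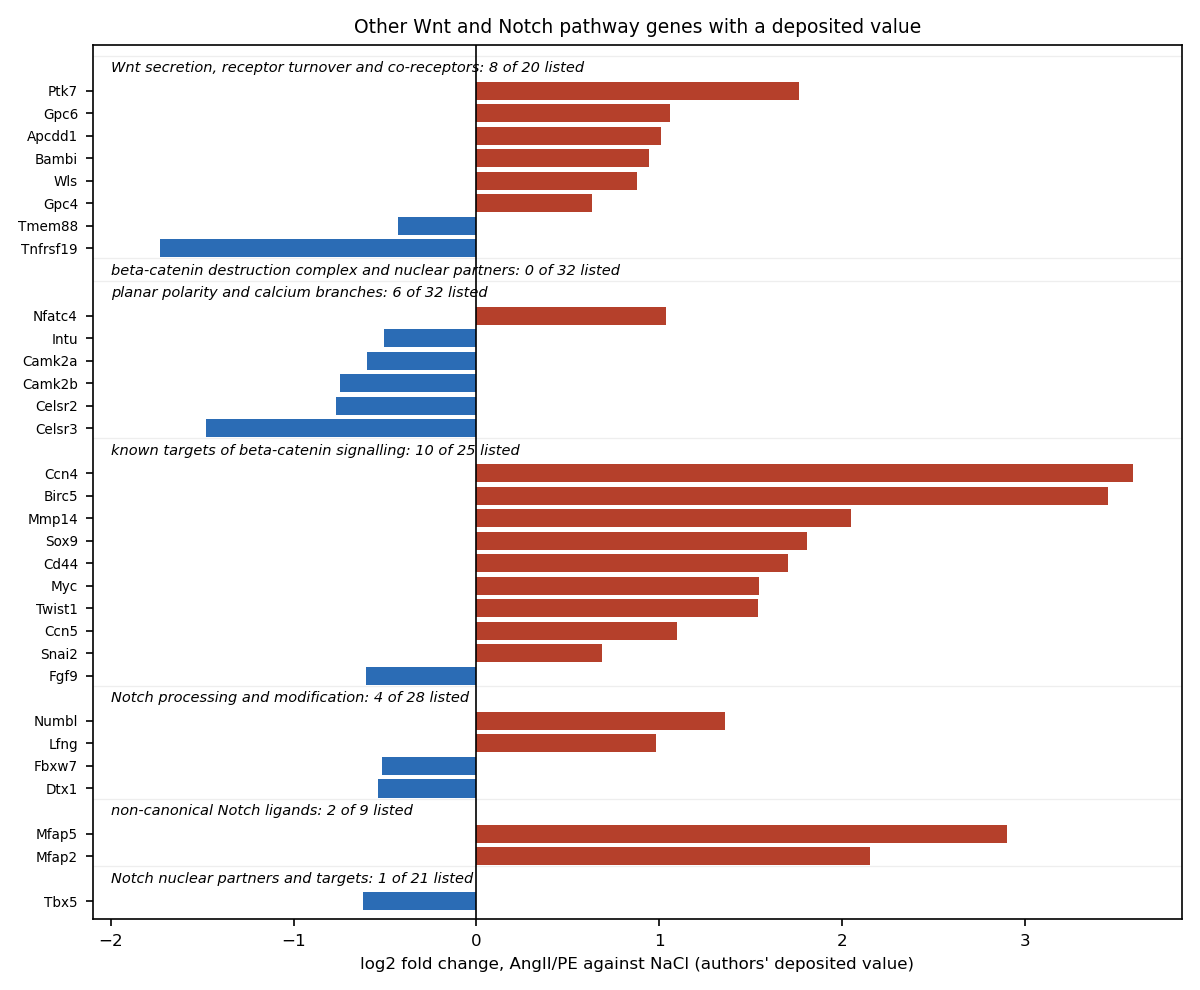
Horizontal bars give the log2 fold change (x axis, AngII/PE against NaCl, authors' deposited value) of the 31 listed genes of the 7 further lists (y axis), red where higher and blue where lower. The target list holds 9 red bars and 1 blue bar, and the list of the destruction complex and nuclear partners holds none.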

How the data were processed

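Whole left ventricular RNA from 12 libraries, grouped by the labels into control and treated females and males, was sequenced. The submitters' processing notes name build mm10 and the tools DESeq2, featureCounts, Subread, cutadapt and STAR (2.4.2a), with no roles or settings. The deposited log2 values are average fold changes of treated against control, per the file headers, and the deposited p-values are adjusted for the false discovery rate by the authors. What was averaged, the covariates and the rule for listing genes are not given there, and depth is unknown. The labels do not say that libraries came from separate mice, so the p-values may measure technical spread.

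Values were read with Python 3.11.15 and pandas 2.3.3, and no model was fitted. Fold is 2 to the power of the absolute log2 value. Members were matched by symbol, and all 19 matched a single protein-coding gene of GENCODE M21 (GRCm38, the assembly of mm10). Shared sequence is the percentage of 50-base runs of a gene's annotated transcripts that occur, on either strand, in transcripts of another gene. Counting and motif search were tested on simulated data. The members and lists were chosen with earlier results of these data known. Text names every member. Of the pathway lists it names every listed gene of size 1 or more on the log2 scale and up to 4 more per list. Of the listed markers it names up to 3 per list, the largest by size. Alternatives were adjusted p thresholds of 0.01 and 0.001, a minimum absolute log2 fold change of 1, recentring, and a narrower choice of LRP genes.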

Additional observations from a re-analysis of the deposited data

How the results depend on the processing

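All 19 members kept their place at adjusted p thresholds of 0.01 and 0.001. Their largest adjusted p in the authors' deposited table is 9.32e-05, so neither threshold could remove a member. Among the other pathway genes 20 and then 19 were higher, and 10 were lower at both. Requiring a size of 1 or more on the log2 scale left 11 higher members and 1 lower member with a median of 1.73, and 15 higher and 2 lower other pathway genes; the threshold removes the smaller changes by construction. Recentring subtracted 0.11, the midpoint of 0.63 and -0.41, beyond which 95% of listed rises and falls lie; the median of the members became 1.20. The shift is smaller than the size of every member's value, so this setting could not change a sign. Without the LRP genes 11 members were higher and 4 lower. No paired analysis was possible because the values carry no libraries, and leaving out libraries was not run for the same reason. Depth is unknown, so it is not known what it limits.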
